A study of Homo sapiens with 6 samples.

Results

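10 enzymes that make serine, pass its carbon to folate and make proline were followed in Ewing tumor cells after silencing of STEAP1. The members are PHGDH, PSAT1, PSPH, SHMT1, SHMT2, MTHFD1, MTHFD2, MTHFD1L, ALDH1L2 and PYCR1, which are 10 of the 18417 genes measured. They were chosen by gene symbol, and for PSPH and MTHFD2, with 2 probe sets each, the probe set with the higher mean log2 intensity over the arrays was used. The set was put together with the knowledge that PSAT1 and MTHFD2 moved oppositely between the siRNAs, so the difference between the siRNAs is given as a description with no test.

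RNA was measured on 6 Affymetrix arrays of 2 established lines, A673 and SK-N-MC, both Ewing tumor lines that carry an EWSR1-FLI1 fusion. Each line gave 1 array with the siRNA against STEAP1 numbered 2, 1 array with the siRNA numbered 3 and 1 control array. All cells had siRNA at 5 nM for 48 h, which was a control siRNA in the control arrays. The siRNAs against STEAP1 are told apart by the numbers in the sample titles. Whether both lines had the same control siRNA is not stated in the labels. Each line stands for 1 tumor in culture. Nothing in the sources says that the arrays of a line are from separate cultures. The p-values therefore reflect the spread between the arrays alone, and that spread may be technical. It also includes any difference between siRNA 2 and siRNA 3, since each line has 1 array of each. In bulk RNA, a change in all cells and a larger one in some of them cannot be told apart.

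Serine is made from the glycolytic intermediate 3-phosphoglycerate by PHGDH, PSAT1 and PSPH in turn. Serine hydroxymethyltransferases (SHMT1 in the cytosol, SHMT2 in mitochondria) split it into glycine and a folate-bound one-carbon unit. The MTHFD enzymes interconvert such units for the synthesis of purines, thymidylate and formate. Several of these genes, together with amino acid transporters and aminoacyl-tRNA synthetases, are known targets of ATF4, a transcription factor made when amino acids are short or the endoplasmic reticulum is stressed, and serine synthesis has been described as a feature of Ewing tumor cells.

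The regions before the start sites of PSAT1, MTHFD2, PHGDH and MTHFD1L are shown because PSAT1 and MTHFD2 went opposite ways between the siRNAs, PHGDH went the way of MTHFD2, and MTHFD1L alone was called lower in A673. Each is the 250 bases before an annotated start in the RefSeq table of build GRCh38.p14, 5′ to 3′ on the gene's strand, which is the plus strand for all of them: PSAT1 at chr9:78296875-78297124, MTHFD2 at chr2:74198365-74198614, PHGDH at chr1:119711684-119711933 and MTHFD1L at chr6:150866197-150866446. Capitals mark matches on either strand to TGATGNAA (the composite ATF4 and C/EBP element), CACGTG (the E-box bound by MYC and other factors), CCAAT (the box bound by NF-Y) and GGGCGG (the GC box), none of which overlap one another here.
PSAT1: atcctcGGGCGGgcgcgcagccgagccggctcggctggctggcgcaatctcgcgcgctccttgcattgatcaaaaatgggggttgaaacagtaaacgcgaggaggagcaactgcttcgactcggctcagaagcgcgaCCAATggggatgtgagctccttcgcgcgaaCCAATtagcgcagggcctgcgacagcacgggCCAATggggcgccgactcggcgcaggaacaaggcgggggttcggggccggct
MTHFD2: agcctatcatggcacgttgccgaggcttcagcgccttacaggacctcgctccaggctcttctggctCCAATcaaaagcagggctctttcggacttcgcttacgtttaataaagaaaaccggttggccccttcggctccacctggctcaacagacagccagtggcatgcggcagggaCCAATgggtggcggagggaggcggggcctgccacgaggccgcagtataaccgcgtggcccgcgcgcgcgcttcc
PHGDH: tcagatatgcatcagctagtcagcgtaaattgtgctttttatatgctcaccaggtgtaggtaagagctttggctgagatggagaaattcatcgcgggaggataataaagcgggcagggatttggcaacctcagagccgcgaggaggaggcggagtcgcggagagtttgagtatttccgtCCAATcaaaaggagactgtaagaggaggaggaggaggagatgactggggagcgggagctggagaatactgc
MTHFD1L: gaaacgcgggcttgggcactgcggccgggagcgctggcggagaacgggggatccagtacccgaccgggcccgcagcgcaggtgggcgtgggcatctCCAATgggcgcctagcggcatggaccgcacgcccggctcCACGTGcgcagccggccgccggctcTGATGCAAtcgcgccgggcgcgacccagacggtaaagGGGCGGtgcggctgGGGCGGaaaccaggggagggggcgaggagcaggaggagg

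The table held windows for 6 of the 10 members, those above and SHMT1 and MTHFD1. CCAAT was present in at least 1 window of all 6, and in 32.0% of the 35116 windows of all genes. This share and those below are per window, whereas the members are counted by gene. TGATGNAA was found in MTHFD1L only, in 2 of its 4 windows, which overlap, and in 3.14% of all windows. The MTHFD1L window shown is 1 of these 2, and its window at chr6:151006758-151007007 held no match to any of the motifs. CACGTG was found in MTHFD1L and MTHFD1, and in 6.34% of all windows. GGGCGG was found in PSAT1, SHMT1 and MTHFD1L, and in 42.6% of all windows. A match is a description of these letters and not a bound site. Only these exact letters in the 250 bases before a start were searched, so a missing match does not show that an element is absent.

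The silenced gene was checked first. In A673, STEAP1 was left at 30.8% of the control level by siRNA 2 and 32.1% by siRNA 3. In SK-N-MC it was left at 12.7% by siRNA 2 and 18.7% by siRNA 3. The Ewing tumor markers CD99, PRKCB, LIPI and NKX2-2 lay at or above percentile 81.2 of the genes in every array, whereas CCK reached at most percentile 69.7 and GLI1 33.8. Of 10 measured markers of other cell types, all but COL1A1 and, in SK-N-MC, DCN lay at a log2 intensity of at most 2.26.

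The first comparison asks in which line the enzymes were more abundant. Of the serine synthesis enzymes, PHGDH (1.64-fold) and PSPH (1.55-fold) were called higher in A673, and so was the cytosolic transferase SHMT1 (1.64-fold). The mitochondrial synthetase MTHFD1L was called on the other side, lower in A673 by 0.48 on the log2 scale. Of the 10 members, 3 were called higher, where 13.5% of all genes were, and 1 lower, where 11.4% of all genes were (24.8% in either direction). The same 3 lay higher in every A673 array than in any SK-N-MC array, and the same 1 lower, where 19.4% and 18.5% of all genes did. These shares are over all genes, many of them dimmer than most members, and no share at a like brightness was taken. The median difference of the members was 0.34 (log2, A673 minus SK-N-MC), beside -0.017 over all genes. The test was limma's moderated test over all genes with a term for silencing, and a call is a Benjamini-Hochberg adjusted p under 0.05.

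PHGDH, the dehydrogenase that commits 3-phosphoglycerate to serine, had log2 intensities of 8.50 with siRNA 2, 8.21 with siRNA 3 and 8.10 in the control array of A673. Its SK-N-MC arrays read 7.88, 7.28 and 7.50 in the same order. All A673 arrays lay above all SK-N-MC arrays, and the difference was 0.72 (SE 0.17, limma adjusted p = 0.0151). It was 0.61 without the A673 siRNA 2 array (limma adjusted p = 0.0677) and 0.78 without either control array (limma adjusted p = 0.0564), and the call was lost in each case. With 16 intensity units added before the logarithm it was 0.67 and not called (limma adjusted p = 0.0670).

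PSAT1, the aminotransferase of the second step, read 6.36 with siRNA 2, 6.89 with siRNA 3 and 6.71 in the control array of A673. In SK-N-MC it read 5.47, 6.43 and 6.16. The A673 siRNA 2 array lay below the SK-N-MC siRNA 3 array, so the lines overlapped, and the difference of 0.63 (SE 0.24, 95% interval 0.07 to 1.20) was not called (limma adjusted p = 0.104). On leaving out SK-N-MC siRNA 3 it was 0.90 and called (limma adjusted p = 0.0193), and on leaving out SK-N-MC siRNA 2 it was 0.35 and not called (limma adjusted p = 0.247). Without any other single array it lay between 0.47 and 0.77 and was not called.

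PSPH, the phosphatase that releases serine, stood at 6.68, 6.08 and 6.42 with siRNA 2, with siRNA 3 and in the control array of A673. The SK-N-MC values were 5.78, 5.84 and 5.65. No array of one line entered the range of the other (difference 0.64, SE 0.16, limma adjusted p = 0.0211). The call was lost without the A673 siRNA 2 array (0.48, limma adjusted p = 0.0765), without either control array (0.57, limma adjusted p = 0.124), on leaving out siRNA 2 of SK-N-MC (0.64, limma adjusted p = 0.0501) and with 16 intensity units added (0.52, limma adjusted p = 0.0820). The other PSPH probe set, which was dimmer, differed by 0.77 between the lines. PSPH has a near-identical pseudogene copy in the genome, so the source of its signal is uncertain.

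Of the transferases, SHMT1 was called and SHMT2 was not. For SHMT1 the A673 arrays had 4.38 with siRNA 2, 3.52 with siRNA 3 and 4.26 in the control array, against 3.24, 3.43 and 3.36 in SK-N-MC. The A673 siRNA 3 array came close to the SK-N-MC range without entering it. The difference was 0.71 (SE 0.21, limma adjusted p = 0.0390), and it was 0.33 with 16 intensity units added before the logarithm (limma adjusted p = 0.155). Without the A673 siRNA 2 array it was 0.49, without either control array 0.62, and on leaving out SK-N-MC siRNA 2 or siRNA 3 it was 0.69 or 0.79, and none of these was called (limma adjusted p from 0.0560 to 0.190). SHMT2, its mitochondrial counterpart, read 7.79, 7.69 and 7.47 in A673 and 7.57, 7.44 and 7.49 in SK-N-MC. Those ranges overlapped, and the difference of 0.15 had a 95% interval of -0.11 to 0.41. Whether SHMT1 and SHMT2 differ from each other in this respect was not tested.

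Among the folate enzymes, MTHFD1L was the one called. It releases formate from mitochondrial 10-formyltetrahydrofolate. Its log2 intensity was 5.66 with siRNA 2, 5.54 with siRNA 3 and 5.36 in the control array of A673, against 5.90, 6.18 and 5.93 in SK-N-MC. Every SK-N-MC array was higher than every A673 array (difference -0.48, SE 0.12, limma adjusted p = 0.0184). The call was lost at -0.44 without either control array (limma adjusted p = 0.107), at -0.46 without the A673 siRNA 3 array (0.0729) and at -0.41 without the SK-N-MC siRNA 3 array (0.0671).

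MTHFD1, the cytosolic MTHFD enzyme, moved least, at 7.72, 7.70 and 7.66 in A673 and 7.47, 7.69 and 7.64 in SK-N-MC. Its difference was 0.09 (95% interval -0.17 to 0.34), and -0.01 after a second quantile normalization. MTHFD2, the mitochondrial dehydrogenase and cyclohydrolase, read 8.21, 7.81 and 7.98 in A673 and 8.10, 7.42 and 7.68 in SK-N-MC. The lines overlapped (difference 0.27, 95% interval -0.16 to 0.70, limma adjusted p = 0.383). On leaving out SK-N-MC siRNA 3 the difference was 0.08, and on leaving out SK-N-MC siRNA 2 it was 0.47 (limma adjusted p = 0.817 and 0.0767).

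ALDH1L2, the mitochondrial formyltetrahydrofolate dehydrogenase, was dim, between log2 1.14 and 2.06 in all arrays and at or below percentile 32.7 of the genes. The difference of 0.40 (95% interval 0.07 to 0.73) was not called (limma adjusted p = 0.0784). It passed with eBayes set to trend and robust (limma adjusted p = 0.0462), which makes 4 members called higher, and it became 0.06 with 16 intensity units added (limma adjusted p = 0.243). With no detection calls, its values have no stated floor. PYCR1, which reduces pyrroline-5-carboxylate to proline in mitochondria, read 5.66, 5.26 and 5.14 in A673 and 5.20, 5.40 and 5.08 in SK-N-MC. It showed no call either (difference 0.13, 95% interval -0.18 to 0.44).

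**Figure D1:**
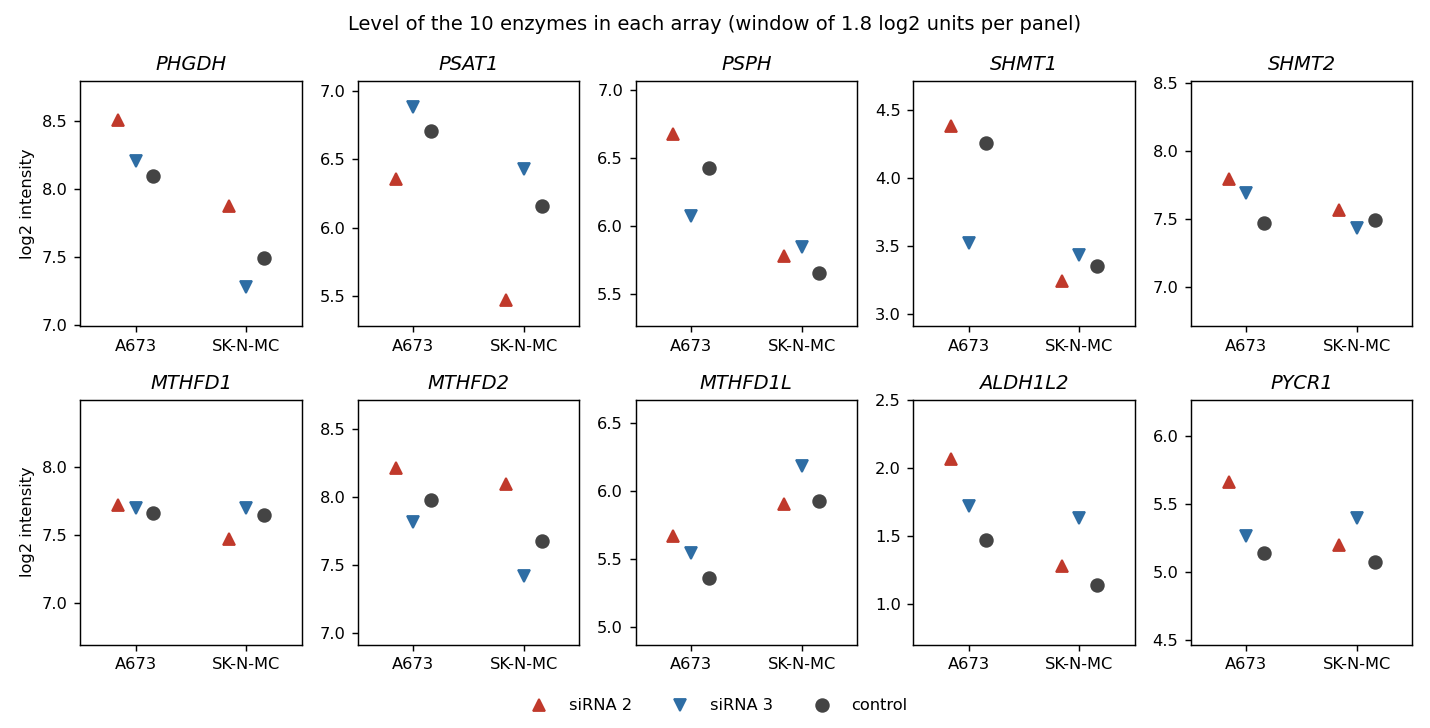
Log2 intensity of each enzyme (1 panel each, all panels spanning the same height) in the siRNA 2, siRNA 3 and control arrays of A673 (left) and SK-N-MC (right), 1 point per array. PHGDH, PSPH and SHMT1 lie higher in all A673 arrays and MTHFD1L lower, while the siRNA 2 and siRNA 3 arrays of PSAT1 and MTHFD2 sit on opposite sides of the control array in both lines.

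**Figure D2:**
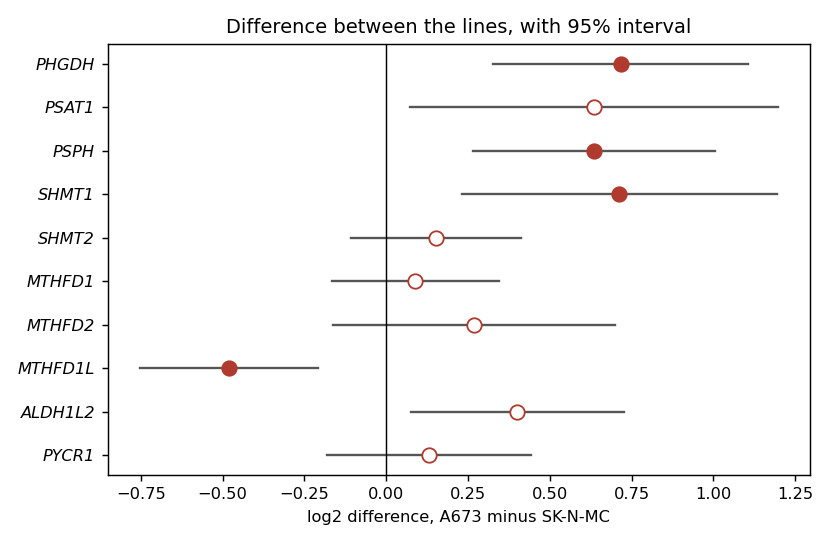
Log2 difference of A673 minus SK-N-MC for each enzyme with its 95% interval from limma over 6 arrays, where filled points have an adjusted p under 0.05. PHGDH, PSPH and SHMT1 are called at 0.64 to 0.72 and MTHFD1L at -0.48, and the intervals of SHMT2, MTHFD1, MTHFD2 and PYCR1 include 0.

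The genes around the pathway were read in the same comparison. The 6 lists were chosen with earlier results of these data known, so their counts are a description and not an independent result. The ATF4 amino acid response list had the largest median of the 6 lists: 20 of its 31 members were called higher in A673 and 1 lower, with a median difference of 0.58, beside 13.5% and 11.4% of all genes. With any single array left out, 14 to 16 were called higher. Its largest differences were the leucine transporter SLC7A5 (7.24-fold), the alanyl-tRNA synthetase AARS1 (4.70-fold), the cystine transporter SLC7A11 (3.02-fold), the partner chain SLC3A2 (2.85-fold) and the transcription factor ATF5 (2.40-fold). ATF5 lost its call on leaving out SK-N-MC siRNA 2 (1.13, limma adjusted p = 0.0692) or siRNA 3 (1.20, limma adjusted p = 0.0628), and with 16 intensity units added (0.70, limma adjusted p = 0.165). Its A673 arrays read 5.70 with siRNA 2, 4.44 with siRNA 3 and 4.43 in the control array, and without the first of these the difference was 0.81 (limma adjusted p = 0.00783). ATF4 itself, named for the list, was 1.53-fold higher (SE 0.14 on the log2 scale, limma adjusted p = 0.0118). DDIT4, an inhibitor of mTORC1, was the called gene on the lower side, at -0.63.

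Serine and glycine carriers and serine-using enzymes were split. Of 14 measured, 6 were called higher in A673 (beside 13.5% of all genes) and 2 lower (beside 11.4%), with a median of 0.33. The serine racemase SRR (3.68-fold), the sideroflexin SFXN3 (2.27-fold), the neutral amino acid exchangers SLC1A4 (1.98-fold) and SLC1A5 (1.95-fold) and the cystathionine lyase CTH (1.82-fold) were higher. SFXN1, the mitochondrial serine carrier, was lower by -1.06 (SE 0.12), and SERINC1 by -0.69. SERINC1 lost its call without the A673 siRNA 2 array (-0.62, limma adjusted p = 0.0595) without either control array (-0.60, limma adjusted p = 0.0906) and with 16 intensity units added (-0.63, limma adjusted p = 0.0566).

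In the folate cycle and glycine cleavage list, 3 of 17 genes were called higher (beside 13.5% of all genes) and 3 lower (beside 11.4%). The median of the 17 measured genes was -0.015. Those higher included thymidylate synthase, TYMS (2.18-fold), and the folate hydrolase GGH (1.82-fold). Methionine synthase, MTR (-0.94, SE 0.11), its reductase MTRR (-0.58, SE 0.11) and the glycine decarboxylase GLDC (-1.27, SE 0.30) were lower. GLDC was dim in A673, with log2 intensities of 1.94 to 2.38, and lost its call without the A673 siRNA 2 array (-1.18, limma adjusted p = 0.0686) without the A673 siRNA 3 array (-1.22, limma adjusted p = 0.0604) and with 16 intensity units added (-0.40, limma adjusted p = 0.176).

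Purine synthesis, which takes up the one-carbon units, had 2 of 12 genes called higher (beside 13.5% of all genes) and 3 lower (beside 11.4%). Its median was -0.17. The same shares over all genes apply to the next 2 lists. ATIC (2.01-fold), which adds the second formyl group, and PFAS (1.49-fold) were higher. PPAT, the first committed enzyme (-1.92, SE 0.11), PAICS (-1.12, SE 0.10) and IMPDH2 (-0.82, SE 0.11) were lower. In the methionine cycle 2 of 11 were higher, PEMT (2.12-fold) and AHCYL2 (1.68-fold), and 1 was lower, the regulatory subunit MAT2B (-1.12), with a median of 0.019. Of 10 genes of proline, glutamate and ornithine, 3 were higher and 0 lower, with a median of 0.10: the ornithine aminotransferase OAT (4.99-fold), the glutamine synthetase GLUL (1.51-fold) and GOT2 (1.35-fold). GOT2 lost its call without any single array except SK-N-MC siRNA 2 and after a second quantile normalization (0.34, limma adjusted p = 0.0757), and without single arrays it ranged from 0.36 to 0.51.

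**Figure D3:**
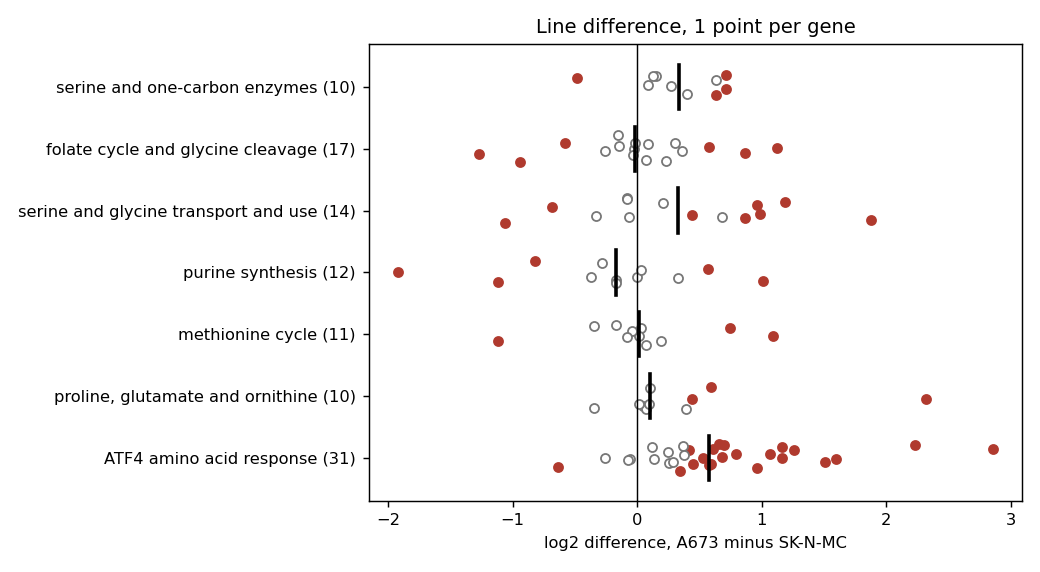
Log2 difference of A673 minus SK-N-MC, 1 point per gene, for the 10 enzymes and 6 lists of neighbouring genes (number measured in brackets), where filled points have a limma adjusted p under 0.05 and the bar is the median. The ATF4 amino acid response list has 20 of 31 genes called higher (beside 13.5% of all genes). Purine synthesis has 3 of 12 called lower (beside 11.4% of all genes). The lists were chosen with earlier results of these data known.

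The next comparison asks whether silencing of STEAP1 changed the enzymes. ALDH1L2 and PYCR1 were above the control array in 4 of 4 siRNA arrays, and 0 members were below it in all 4, where 10.6% of all genes were above and 11.2% below. No member was called across lines by limma, nor was any other gene (0% of 18417), and 852 genes, ALDH1L2 among them as 1 member, had an unadjusted p under 0.05. STEAP1 itself, lower by -2.18 (SE 0.24), did not pass after adjustment over all genes either (limma adjusted p = 0.293). With eBayes set to trend and robust it was the 1 gene called (limma adjusted p = 0.0364), with 0 members. The absence of calls does not show that the enzymes were unaffected. The median difference of the members was 0.099 (log2, siRNA arrays minus control), beside -0.005 over all genes.

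In A673, ALDH1L2 exceeded its control by 0.59 after siRNA 2 and 0.25 after siRNA 3, and in SK-N-MC by 0.14 and 0.49. Across lines this was 0.37 (SE 0.15, limma adjusted p = 0.989), in a gene that is dim in every array, and 0.06 with 16 intensity units added. For PYCR1 the siRNA arrays differed by 0.52 and 0.12 in A673 and by 0.12 and 0.33 in SK-N-MC. Across lines PYCR1 differed by 0.27 (SE 0.14, 95% interval -0.06 to 0.60, limma adjusted p = 0.989). The 2 siRNA arrays of a line share 1 control array, so their agreement in sign is not independent.

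Of the serine synthesis enzymes, PHGDH differed by 0.17 (95% interval -0.24 to 0.59), PSAT1 by -0.15 (-0.74 to 0.45) and PSPH by 0.06 (-0.34 to 0.45). The transferases SHMT1 (-0.16, interval -0.67 to 0.35) and SHMT2 (0.14, interval -0.14 to 0.42) and the folate enzymes MTHFD1L (0.18, interval -0.11 to 0.47), MTHFD1 (-0.005) and MTHFD2 (0.06, interval -0.40 to 0.52) were likewise not called. The intervals do not exclude a 1.5-fold lower level of PSAT1 or SHMT1, or a 1.5-fold higher level of ALDH1L2 or PYCR1, and that of PHGDH ends at about this size. The signs of PSAT1, PSPH, SHMT1, MTHFD1 and MTHFD2 were not settled, since each turned with at least 1 array left out. These PSPH values are from its brighter probe set. The other one read 5.31 with siRNA 2, 5.42 with siRNA 3 and 5.00 in the control array of A673. In SK-N-MC it read 4.67, 4.62 and 4.12, so every siRNA array lay above its control array. With the mean of all probe sets PSPH differed by 0.25 (SE 0.12) and was not called (limma adjusted p = 0.992).

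Tested line by line, 0 members were called by limma in A673 (0% of all genes called, 617 with an unadjusted p under 0.05) and 0 in SK-N-MC (0.00543% of all genes, 943 with an unadjusted p under 0.05). The direct test of whether the lines responded differently called 0 members as well (0% of all genes, 711 with an unadjusted p under 0.05). Both siRNA arrays lay on one side of control in A673 and on the other in SK-N-MC for 0 of 10 members and for 20.0% of all genes. The lone control array of a line and the 2 residual degrees of freedom of this fit limit these tests: the SE of a member ran from 0.17 to 0.40 within a line and from 0.24 to 0.56 for the difference of the responses.

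No gene of the 6 neighbouring lists was called after silencing. The ATF4 amino acid response list had a median of 0.036 across lines. In it asparagine synthetase, ASNS (0.41, SE 0.18), and SESN2 (0.29, SE 0.28) had the largest positive differences, and DDIT3 (-0.18, SE 0.18) and ATF4 (-0.12, SE 0.15, but 0.07 if the control array of SK-N-MC is left out) the largest negative ones, all with a limma adjusted p of 0.989. The folate list had a median of -0.043, with ALDH1L1 (0.25) and the methionyl-tRNA formyltransferase MTFMT (0.23) at one end and FPGS (-0.22) and the mitochondrial folate carrier SLC25A32 (-0.19) at the other. The remaining lists had medians between -0.0085 and 0.055.

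The last comparison sets siRNA 2 against siRNA 3, and its values chose the members in part. With siRNA 2 PSAT1 was lower than with siRNA 3 in both lines, and MTHFD2 and PHGDH were higher in both. PSAT1 was 1.44-fold lower in A673 and 1.95-fold lower in SK-N-MC (log2 differences -0.53 and -0.97). MTHFD2 was 1.32-fold higher in A673 and 1.60-fold higher in SK-N-MC (0.40 and 0.68), and PHGDH 1.23-fold and 1.51-fold higher (0.30 and 0.59).

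Set against the control array, the siRNAs lay on opposite sides for PSAT1 and MTHFD2. In A673, PSAT1 was at 78.6% of the control level with siRNA 2 and 113% with siRNA 3, and at 61.9% and 121% in SK-N-MC. MTHFD2 was at 118% with siRNA 2 and 89.4% with siRNA 3 in A673, and at 134% and 83.6% in SK-N-MC. These MTHFD2 values are from its brighter probe set. The other one read 7.62 with siRNA 2, 7.13 with siRNA 3 and 7.19 in the control array of A673, and 7.18, 7.09 and 7.02 in SK-N-MC, where both siRNA arrays lay above the control array and the opposite sides were lost. Such opposite sides in both lines occurred in 2 of 10 members and in 6.36% of all genes, a count that the choice of members fixes in part. PHGDH was at 133% and 130% of control with siRNA 2 in A673 and SK-N-MC, and at 108% and 86.4% with siRNA 3.

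The other members had no such shared pattern. SHMT2 was the fourth member with the same sign in both lines (0.10 and 0.13), so 4 of 10 members kept their sign, where 50.9% of all genes did. SHMT1 differed by 0.86 in A673 and -0.19 in SK-N-MC, PSPH by 0.60 and -0.07, PYCR1 by 0.40 and -0.20, and ALDH1L2 by 0.34 and -0.36. MTHFD1L stood at 0.12 and -0.28, and MTHFD1 at 0.02 and -0.22. At least 1.5-fold in both lines, 0 members were higher, where 0.125% of all genes were, and 0 were lower, where 0.179% were. PSAT1 and MTHFD2 missed this limit in A673 and PHGDH missed it there too. The other probe set of MTHFD2 differed by 0.49 in A673 and by 0.09 in SK-N-MC. That of PSPH differed by -0.11 and 0.05.

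**Figure D4:**
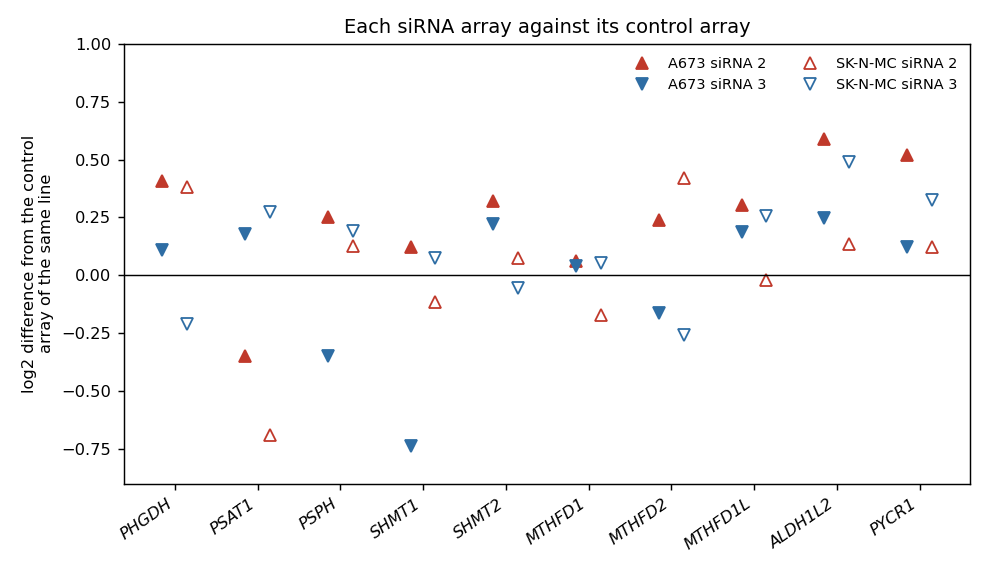
Log2 difference of each siRNA array from the control array of its own line, for siRNA 2 (upward triangles) and siRNA 3 (downward triangles) in A673 (filled) and SK-N-MC (open). PSAT1 lies below 0 with siRNA 2 (-0.35 and -0.69) and above 0 with siRNA 3 (0.18 and 0.27), MTHFD2 lies the other way round, and ALDH1L2 and PYCR1 lie above 0 in all 4 arrays.

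The neighbouring genes were described in this contrast too, where 24.6% of all genes were higher with siRNA 2 in both lines and 26.3% lower. In the proline, glutamate and ornithine list 7 of 10 genes were higher with siRNA 2 in both lines and 0 lower, with OAT (mean of the lines 0.40) and the cytosolic aspartate aminotransferase GOT1 (0.33) leading. In the ATF4 list 10 of 31 were higher in both lines and 7 lower. SESN2 (0.82) and the arginine transporter SLC7A1 (0.39) were the largest on the higher side, and SLC38A2 (-0.19) and STC2 (-0.18) on the lower. In the folate list 7 of 17 were higher, led by SLC25A32 (0.44) and TYMS (0.35), and 5 lower, led by GLDC (-0.68, of which -1.29 in SK-N-MC) and MTHFD2L (-0.26). MTHFD2L was dim, at log2 1.42 to 1.93 in all arrays, and differed by -0.01 in A673 and -0.51 in SK-N-MC. Serine and glycine transport and use had 5 of 14 on each side, with SLC6A9 (0.50), CTH (0.37), SERINC1 (-0.39) and SRR (-0.27) at the ends. Purine synthesis and the methionine cycle kept to between -0.17 and 0.17 in the genes that had 1 sign in both lines.

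Genes with the most similar profile were found among the 2391 genes with a mean log2 intensity of at least 6, after each line was centred on its own mean. Over the 6 arrays, PSAT1 was most like ADAM10 (Pearson r = 0.998), G3BP2 (0.997) and DCTN1 (0.995). MTHFD2 was most like ATP5PO (0.993), ACAT2 (0.988) and SUCLG1 (0.987). PSAT1 and MTHFD2 had a correlation of -0.994 with each other, and PHGDH one of -0.941 with PSAT1 and 0.931 with MTHFD2. PSPH (-0.405), SHMT2 (-0.526) and MTHFD1 (0.793) correlated less with PSAT1. The set was put together with the opposite movement of PSAT1 and MTHFD2 known, so their negative correlation is fixed in part by that choice. With each line centred on its own mean, few values vary freely and high correlations come easily. PHGDH ranked 30 among the genes most like MTHFD2. These are descriptions over 6 arrays, with 1 control array per line.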

How the data were processed

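The deposited intensities, 1 column per array, are linear, and the submitters' processing notes name RMA and version 1.1 of Affymetrix Expression Console as the tools with which the authors made them. The step back to a linear scale and the genome build are not given in the sources used here. Column medians lay between 6.01 and 6.48 intensity units, and precision is limited by having 6 arrays. From these, log2 of each intensity was taken with no further normalization. Probe sets with 1 symbol in the platform annotation (19460 of 33297) gave 18417 genes after symbols were updated by gene identifier, with the brightest probe set of each gene. A probe set shared by PHGDH and MZT2B and those shared by MTHFD1L with other loci were not used here.

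Differences were tested two-sided with limma (version 3.58.1, R 4.3.3, lmFit then eBayes), adjusting over all genes by Benjamini-Hochberg. The first model had line and silencing terms with 3 residual degrees of freedom, the other the 4 group means with 2. Only the first was checked on simulated data with planted changes. Both siRNAs counted as replicates of silencing. Members and lists were chosen with earlier results of these data known. Of each list the text names up to 5 called genes per direction, or else the 2 largest differences, given after silencing for the ATF4 and folate lists only, and ATF4 besides; 1 called gene of the folate list is not reported here by name. Of the listed genes, those without a probe set of 1 symbol were not analysed here. The alternatives were a second quantile normalization, median centring, 16 units added, a mean log2 of at least 4, the mean of all probe sets, eBayes with trend and robust, single arrays left out and the siRNA number as a replicate block.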

Additional observations from a re-analysis of the deposited data

Results flagged for a closer look

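PSAT1 and MTHFD2 drew attention because every siRNA 2 array lay on one side of its control array and every siRNA 3 array on the other. PSAT1 averaged -0.52 with siRNA 2 and 0.23 with siRNA 3 over the lines (log2, against control), and MTHFD2 averaged 0.33 with siRNA 2 and -0.21 with siRNA 3. This difference was not tested, since it chose the members. MTHFD2's other probe set did not show the opposite sides in SK-N-MC.

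Of the 95 measured genes of the neighbouring lists, 17 had both siRNA arrays on one side of control in A673 and on the other in SK-N-MC, where 20.0% of all genes did. In the ATF4 list, the mean response was 0.64 in A673 and -0.35 in SK-N-MC for ATF5, where the A673 arrays gave 1.27 with siRNA 2 and 0.01 with siRNA 3. The means in A673 and SK-N-MC were 0.30 and -0.28 for GARS1, 0.30 and -0.22 for STC2, 0.31 and -0.14 for CHAC1, and 0.39 and -0.04 for ATF3. Above control in A673 and below it in SK-N-MC were also the tRNA synthetases AARS1 (0.17 and -0.17), SARS1 (0.10 and -0.21), IARS1 (0.13 and -0.13) and TARS1 (0.12 and -0.05), together with ALDH4A1 (0.22 and -0.24), ATIC (0.10 and -0.19) and MAT2B (0.18 and -0.13). Below control in A673 and above it in SK-N-MC were PYCR3 (-0.12 and 0.42), ADSS1 (-0.35 and 0.23), SFXN3 (-0.16 and 0.38), PRODH2 (-0.27 and 0.17) and FTCD (-0.15 and 0.28). Limma's test of the difference of the responses called 0 of all genes, these included, and 711 had an unadjusted p under 0.05. ATF3, STC2, ADSS1 and PRODH2 were dim, with a log2 intensity of at most 2.53 in any array. Both siRNA arrays of a line share 1 control array, so their agreement in sign is not independent here either.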

How the results depend on the processing

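Between the lines, PHGDH, PSPH, SHMT1 and MTHFD1L kept their direction under every alternative run. With 16 intensity units added, 0 members were called higher in place of 3, and with trend and robust 4, ALDH1L2 being the gain. With single arrays left out, 0 to 3 members were called higher and 0 to 1 lower, and 1330 to 2120 of all genes lower. With a mean log2 of at least 4, which tests fewer genes, 1355 genes were called lower in place of 2096, and 0 of the ATF4 list in place of 1. MTHFD1 turned to -0.0108 between the lines after a second quantile normalization, and STEAP1 ranged from -0.49 to 0.11 with arrays left out. After silencing, MTHFD1 turned to 0.0105 under median centring and 0.0076 under a second quantile normalization. With single arrays left out, PSAT1 ranged from -0.34 to 0.0695, PSPH from -0.0588 to 0.20, SHMT1 from -0.33 to 0.042, MTHFD1 from -0.0609 to 0.0512, MTHFD2 from -0.0896 to 0.20 and ATF4 from -0.30 to 0.0717, none of them called. Over all genes, eBayes with trend and robust called 1 gene lower across lines, STEAP1, and 9 in SK-N-MC, and 16 added units called 0 in SK-N-MC. With single arrays left out, 0 to 1 genes were called lower across lines, 0 to 1 higher and 0 to 60 lower in SK-N-MC, and 0 to 26 higher in the difference of the responses. The cause was not tested. With the siRNA number as a replicate block, PSAT1 was called between the lines (0.63, limma adjusted p = 0.00706), and 2548 genes were higher and 2172 lower. The number was read as that of the siRNA, although the title of the A673 control array carries a number too. The sources do not say whether same-numbered arrays share anything else. The siRNA 2 minus siRNA 3 difference correlated at 0.0663 between the lines across genes. Dim members such as ALDH1L2 are limited by signal over background.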
